A study of Homo sapiens with 24 samples.

Results

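The 41 genes described here are those of glucose breakdown and of the hypoxia response, and all 41 were found by symbol among the 22026 genes of the deposited expression table. They were taken as a named list: 4 transporters of glucose and lactate, 9 genes of upper and 8 of lower glycolysis (lactate dehydrogenase included), 4 regulators of flux, 12 targets of the hypoxia-inducible factors (HIF) outside glycolysis, and 4 genes of oxygen sensing. They were measured in A549, an established human line of lung adenocarcinoma with epithelial character, kept in control medium or in one that had been conditioned by cells labelled CAF, an abbreviation commonly used for cancer-associated fibroblasts. Cells were harvested after 3, 6, 12, 24, 48 and 72 h, with 1 mRNA library and 1 small RNA library per medium and time. Neither group carries a genetic change that the labels name beyond the shared line itself, and the source of the CAF, the make-up of both media and the oxygen level are not stated. The design text speaks of 2 biological replicates, which are not separate in the deposited columns, and a single time is therefore without a replicate. The 6 times served as the replicates of the medium effect, and p-values thus measure how far these libraries scatter, a scatter that may be technical and that also holds any true change of the effect over time.

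In glycolysis, glucose enters through transporters of the GLUT family, is split into triose phosphates and is oxidised to pyruvate, and lactate dehydrogenase then turns pyruvate into lactate, which leaves the cell through monocarboxylate transporters. When oxygen is short, the alpha subunits of HIF are no longer hydroxylated and escape destruction. The stabilised subunit pairs with ARNT, binds a short core motif, ACGTG or GCGTG, and raises many genes of this pathway together with genes for pH control, vessel growth and mitophagy. Much of the HIF response is set by protein stability, which RNA does not measure, and many carcinoma lines run glycolysis at a high rate with oxygen present.

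Promoters are shown for SLC2A1, LDHA, PGK1 and CA9 (lower in CAF medium over the 6 times) and ADM (lower at 3 to 12 h). The core motif is what HIF reads. PGAM1 and PFKM, which also passed in 1 period each, are not shown, so these sequences are a selection. Each sequence is the RefSeq window of 300 bases from 250 before to 50 after an annotated start (build GRCh38.p14), 5′ to 3′ on the gene's strand, with ACGTG or GCGTG on either strand in capitals (CACGT and CACGC are their reverse complements). The palindrome CACGTG holds ACGTG on both strands and was counted on each. For SLC2A1 (chr1:42958819-42959118, minus strand), LDHA (chr11:18394313-18394612, plus strand, the first of its windows), PGK1 (chrX:78103998-78104297, plus strand), CA9 (chr9:35673678-35673977, plus strand) and ADM (chr11:10304823-10305122, plus strand) the windows read:
SLC2A1: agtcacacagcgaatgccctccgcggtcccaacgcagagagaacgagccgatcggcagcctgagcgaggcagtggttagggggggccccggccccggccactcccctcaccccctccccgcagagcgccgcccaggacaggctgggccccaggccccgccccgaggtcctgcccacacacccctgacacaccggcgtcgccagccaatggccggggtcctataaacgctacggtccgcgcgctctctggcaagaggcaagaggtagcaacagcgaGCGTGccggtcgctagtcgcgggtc
LDHA: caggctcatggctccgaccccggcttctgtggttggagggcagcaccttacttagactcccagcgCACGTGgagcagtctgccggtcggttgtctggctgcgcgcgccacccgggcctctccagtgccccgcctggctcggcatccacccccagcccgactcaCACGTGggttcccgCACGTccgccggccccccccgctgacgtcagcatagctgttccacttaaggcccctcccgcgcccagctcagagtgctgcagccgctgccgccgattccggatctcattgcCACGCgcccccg
PGK1: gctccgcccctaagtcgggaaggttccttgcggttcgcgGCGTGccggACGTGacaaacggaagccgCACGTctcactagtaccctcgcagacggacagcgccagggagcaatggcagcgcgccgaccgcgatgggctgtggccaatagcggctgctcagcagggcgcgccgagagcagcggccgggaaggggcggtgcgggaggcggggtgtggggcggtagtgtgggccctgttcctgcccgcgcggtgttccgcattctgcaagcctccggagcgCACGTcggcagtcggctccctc
CA9: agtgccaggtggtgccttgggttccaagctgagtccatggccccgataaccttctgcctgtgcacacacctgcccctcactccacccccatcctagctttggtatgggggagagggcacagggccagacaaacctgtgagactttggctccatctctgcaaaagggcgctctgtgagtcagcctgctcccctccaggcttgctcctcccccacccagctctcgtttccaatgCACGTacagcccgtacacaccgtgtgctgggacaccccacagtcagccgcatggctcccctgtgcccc
ADM: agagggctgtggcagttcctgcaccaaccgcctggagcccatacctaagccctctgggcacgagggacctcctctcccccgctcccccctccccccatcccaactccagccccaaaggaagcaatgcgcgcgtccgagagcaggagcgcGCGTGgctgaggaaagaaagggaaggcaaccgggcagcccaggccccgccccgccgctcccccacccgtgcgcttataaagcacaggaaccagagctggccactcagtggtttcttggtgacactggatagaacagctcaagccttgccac
LDHA held 6 matches, 5 of them ACGTG, PGK1 held 4 with 3 of them ACGTG, and CA9 had 1 ACGTG match at position -18 from the start. SLC2A1 and ADM held 1 match each, of GCGTG, at positions 25 and -101. Windows were found for 36 of the 41 members (BNIP3L, NDRG1, SLC16A1, SLC2A3 and VEGFA were not matched), and 21 of these had ACGTG in at least 1 window. No share by gene was taken over all genes, and a gene with more windows has more room for a match. The members were also listed in part as HIF targets, so the shares below are a description. By window, 39.1% of 64 member windows held ACGTG, against 21.4% of all 35116 windows and 25.3% of the 12736 windows of tested genes. Either motif was in 68.8%, 48.4% and 61.04% of them. A match says only that the letters are present in this window.

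Expression is given as RPKM, that is read counts scaled to gene length and to library size, from 23.9 to 29.3 M reads in each library of 3 to 12 h and from 33.9 to 40.6 M in those of 24 to 72 h. The members together made up 1.09 to 1.86% of the summed RPKM of a library. Of the 41 members, 40 passed the filter of a mean of at least 1 RPKM; HK2 did not. Of 6 epithelial markers (summed RPKM 4280 to 5043 in control medium and 3299 to 5531 in CAF medium), the keratins KRT8, KRT18 and KRT7 made up nearly all of the sum. EPCAM was low, at 0.240 to 3.30 RPKM in control and 0.660 to 6.46 RPKM in CAF medium, and was higher in CAF medium at 6 of 6 times. The cadherin CDH1 was higher in CAF medium at 5 of 6 times (23.6 against 40.0 RPKM at 72 h), and both markers stood highest at 72 h. The keratins were mixed: CAF medium was higher at 5 of 6 times for KRT19, 4 for KRT8, 3 for KRT18 and 2 for KRT7. At 48 h KRT8, KRT18 and KRT7 were all lower in CAF medium (KRT8 1265 RPKM, against 2161 in control medium). The summed level of 10 fibroblast markers was 4.89 to 11.7 RPKM in control medium and 8.67 to 12.0 in CAF medium. COL1A1 (1.37 to 4.27 RPKM in control and 2.60 to 5.81 in CAF medium) and FAP (2.11 to 4.09 and 1.67 to 4.71 RPKM) had the highest levels, with COL1A1 higher in CAF medium at 4 of 6 times. THY1 was higher in CAF medium at 6 of 6 times, for example 1.27 against 0.170 RPKM at 24 h, while COL1A2 and COL3A1 were at or below 0.12 and 0.16 RPKM in every library. The part of these markers in the results that follow was not tested. Of 7 immune and endothelial markers, whose sums were 19.8 to 23.0 and 14.4 to 32.1 RPKM, CD68 reached 30.6 RPKM and PTPRC, which marks leukocytes, no more than 0.04 RPKM. In bulk RNA, fewer cells that express a gene and less RNA per cell cannot be told apart.

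Across the 6 times, CAF medium lowered 4 of the 40 tested members and raised none at an adjusted p under 0.05 (limma on log2(RPKM + 0.5), Benjamini-Hochberg over 12029 genes). The 4 were SLC2A1, which brings glucose in, PGK1 and LDHA, which act in lower glycolysis, and CA9, which buffers pH at the cell surface. Of all tested genes 4.13% were lower and 6.06% higher by the same rule, so 4 of 40 lies above the background for lower genes and 0 of 40 below that for higher genes. This comparison was not tested, and the members were chosen with earlier results of these data known. A negative change was found in 29 of 40 members, with a median of -0.21 on the log2 scale, against 49.7% of all genes and a median of 0.002. At an unadjusted p under 0.05, 13 members were lower and 2 higher. The changes were small next to a 2-fold step, between -0.58 and 0.42 for every tested member. Without the 6, 12 or 24 h pair the same fit called 13, 10 and 52 genes lower in the whole table and 0 members, so each of the 4 calls needed these pairs.

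**Figure D1:**
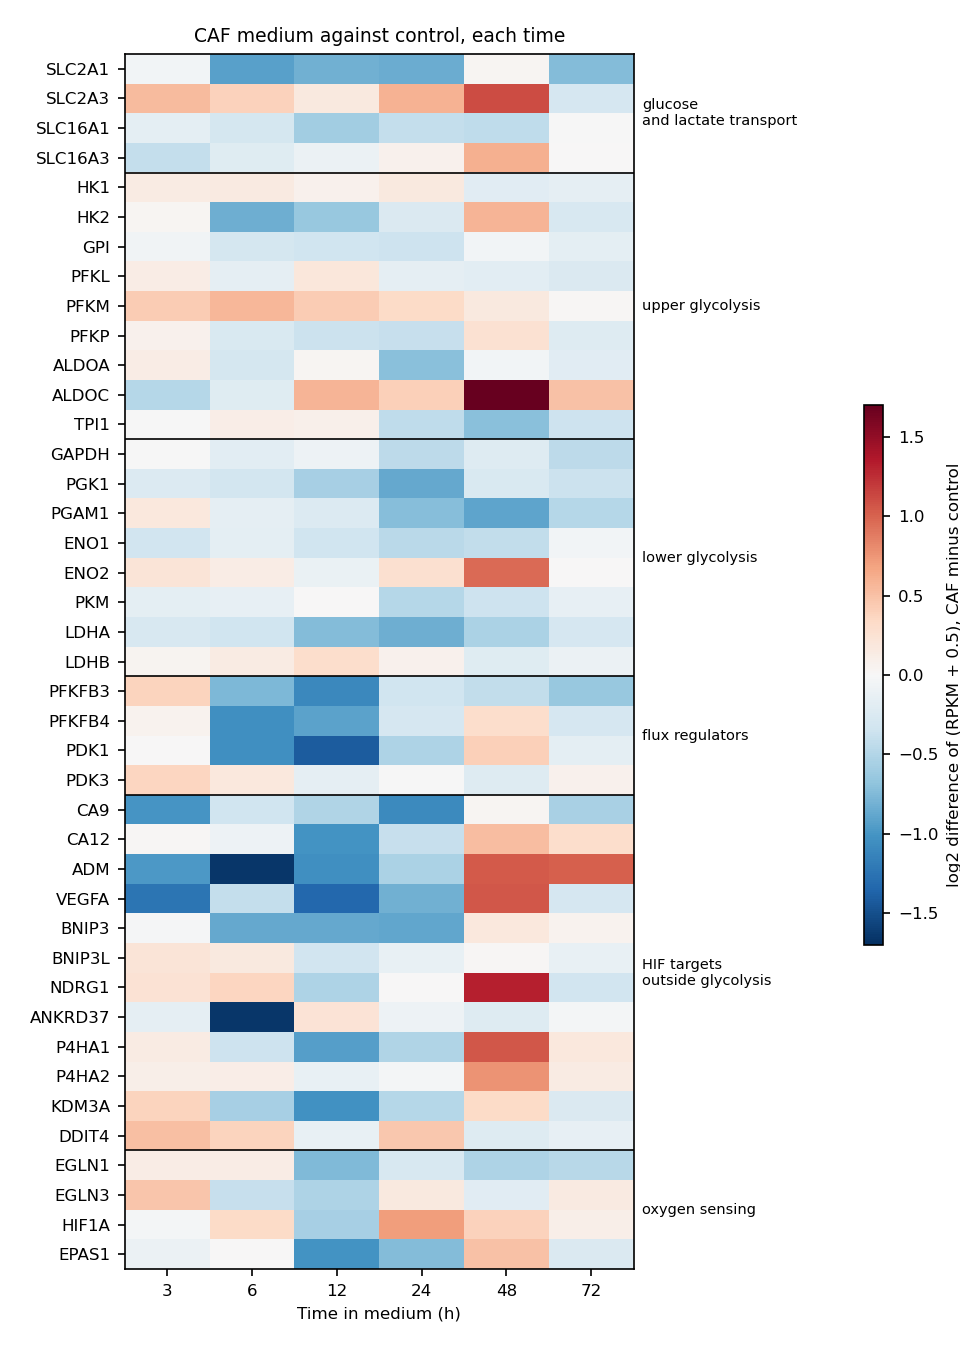
Difference between CAF and control medium for each of the 41 members (rows, by role) at each time (columns), as log2 of (RPKM + 0.5), blue where lower and red where higher in CAF medium. At 12 h 30 of the 40 tested members are lower and at 24 h 29, at 48 h NDRG1, VEGFA, P4HA1, ADM, SLC2A3 and ALDOC are red, and at 72 h 28 of 40 are lower again.

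Among the transporters, the GLUT1 gene SLC2A1 fell. Listed here and below in the order of the times, it measured 31.97, 36.2, 26.7, 28.4, 16 and 10.3 RPKM in control medium and 30.9, 18.9, 14.9, 15.6, 16.4 and 5.98 RPKM in CAF medium. The CAF medium value was about equal to the control at 3 and 48 h and well under it at 6, 12, 24 and 72 h (log2 -0.56 ± 0.14 SE, adjusted p = 0.0358). The mean was 24.9 ± 9.86 RPKM in control medium and 17.1 ± 8.06 RPKM in CAF medium (SD, n = 6 times). Without the 6, 12, 24 or 72 h pair the change was -0.48 (adjusted p = 0.116), -0.50 (adjusted p = 0.105), -0.50 (adjusted p = 0.116) and -0.52 (adjusted p = 0.0659), so that the call needed each of these pairs. SLC2A3, which encodes the high-affinity transporter GLUT3, went the other way without passing the test (log2 0.42 ± 0.15 SE, adjusted p = 0.095). Its levels were 9.35, 8.21, 7.65, 7.36, 16.1 and 16.6 RPKM in control medium and 13.8, 10.9, 8.67, 11.4, 35.1 and 13.5 RPKM in CAF medium. CAF medium was higher at 5 of 6 times, and its 48 h library stood far above the other 5 of that medium. Without the 72 h pair, the single time at which SLC2A3 was lower in CAF medium, its change was 0.56 (adjusted p = 0.0291). With any other pair left out, the change was 0.28 to 0.47 and did not pass (adjusted p from 0.14 to 0.227). The lactate carriers differed from each other. SLC16A1 (MCT1) ranged over 10.2 to 18.1 RPKM and was lower in CAF medium at 6 of 6 times (log2 -0.32 ± 0.10 SE, adjusted p = 0.0596). Without the 72 h pair, where the media were nearly equal, its change was -0.38 (adjusted p = 0.0444). Leaving out any other pair gave adjusted p from 0.063 to 0.172. SLC16A3 (MCT4), at 21.99 to 39.4 RPKM, had a change of -0.00315 (adjusted p = 0.988).

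In upper glycolysis none of 8 tested members passed over the 6 times, and 5 had a negative change. PFKM, the muscle-type subunit of phosphofructokinase, was higher in CAF medium during 3 to 12 h (log2 0.48 ± 0.12 SE, adjusted p = 0.0482), a period in which 3.77% of all genes were called higher and 1.86% lower. PFKM stood at 6.54, 5.98, 5.93, 9.72, 12.6 and 13.2 RPKM in control medium and 8.99, 9.04, 8.21, 12.3, 14.1 and 13.5 RPKM in CAF medium. The gap was widest at 6 h and almost closed at 72 h, and both media were higher from 24 h on than before. Its early call was lost under 10 of 12 alternatives, with changes of 0.50 (adjusted p = 0.0879), 0.43 (adjusted p = 0.252), 0.49 (adjusted p = 0.146), 0.48 (adjusted p = 0.0577) and 0.48 (adjusted p = 0.0695) without the 3, 6, 12, 48 and 72 h pairs. The other subunits, PFKL (9.37 to 13.8 RPKM) and the most abundant one, PFKP (59.1 to 95.2 RPKM), had changes of -0.07 (adjusted p = 0.651) and -0.15 (adjusted p = 0.359). ALDOC, a minor aldolase in these cells, measured 2.42, 2.48, 1.37, 1.91, 3.3 and 5.95 RPKM in control medium and 1.59, 2.08, 2.29, 2.68, 11.9 and 8.65 RPKM in CAF medium. Its CAF medium values at 48 and 72 h were the highest of the 12 libraries, with a late change of log2 0.87 ± 0.26 SE, adjusted p = 0.086. The main aldolase, ALDOA (182 to 368 RPKM), and GPI (32.9 to 68.3 RPKM), which converts glucose 6-phosphate to fructose 6-phosphate, had changes of -0.18 (adjusted p = 0.311) and -0.21 (adjusted p = 0.127). TPI1, which interconverts the triose phosphates (180.1 to 404 RPKM), came near the threshold in the late period (log2 -0.50 ± 0.13 SE, adjusted p = 0.054). The hexokinase gene HK1 had 29.3 to 38.6 RPKM and a change of 0.03 (adjusted p = 0.832). HK2 stayed at 0.09 to 1.16 RPKM (at least 17.4 reads per library) and was not tested. A further hexokinase gene outside the members, HKDC1, averaged 25.3 RPKM in control and 21.7 RPKM in CAF medium (log2 -0.23, limma adjusted p = 0.137).

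Lower glycolysis held the most abundant members and the clearest decreases. LDHA, the lactate dehydrogenase subunit that favours lactate formation, had 787, 781, 756, 821, 498 and 383 RPKM in control medium and 652, 617, 452, 461, 342 and 315 RPKM in CAF medium. It was lower in CAF medium at every time, most at 12 and 24 h (log2 -0.50 ± 0.10 SE, adjusted p = 0.0206). LDHA averaged 671 ± 183 RPKM in control medium and 473 ± 138 RPKM in CAF medium (SD, n = 6 times). Without the 6, 12 or 24 h pair its change was -0.53 (adjusted p = 0.0645), -0.45 (adjusted p = 0.0672) and -0.44 (adjusted p = 0.0811). LDHB, the other subunit, ranged over 604 to 811 RPKM with a change of 0.04 (adjusted p = 0.79). PGK1, which makes ATP in this part of the pathway, had 188, 169.8, 163, 225, 136 and 112 RPKM in control medium and 159.7, 136, 109.8, 123, 113 and 86.98 RPKM in CAF medium. It too was lower at 6 of 6 times (log2 -0.43 ± 0.10 SE, adjusted p = 0.0287). Means were 166 ± 39.6 RPKM in control medium and 122 ± 24.8 RPKM in CAF medium (SD, n = 6 times). The change was -0.46 (adjusted p = 0.0751), -0.41 (adjusted p = 0.0811) and -0.35 (adjusted p = 0.102) without the 6, 12 or 24 h pair. PGAM1, a phosphoglycerate mutase, passed in the late period instead (log2 -0.70 ± 0.14 SE, adjusted p = 0.017), where 2.74% of all genes were called lower and 1.36% higher. Its levels were 47.7, 52.9, 46.8, 69.1, 45.1 and 28.3 RPKM in control medium and 54.1, 47.5, 39.8, 41.6, 24.1 and 19.99 RPKM in CAF medium. It was slightly higher in CAF medium at 3 h and lower at each later time, most at 24 and 48 h. Without the 24 or 48 h pair the late change was -0.69 (adjusted p = 0.0738) and -0.61 (adjusted p = 0.173), and without the 3 h pair PGAM1 also passed over the remaining times, at -0.50 (adjusted p = 0.0348). With any other pair left out, the change over the remaining times did not pass (adjusted p from 0.137 to 0.241). GAPDH, often used as a reference gene, ran from 639 to 1712 RPKM with a change of -0.23 (adjusted p = 0.134), PKM from 545 to 962 RPKM with -0.21 (adjusted p = 0.154), and ENO1 from 336 to 829 RPKM with -0.29 (adjusted p = 0.0605). ENO2, the enolase best known from neurons, had 13.8 to 32.9 RPKM and 0.25 (adjusted p = 0.233). Several of these genes have near-identical processed pseudogenes, and the counting of shared reads is not stated, so reads of a gene and its copies cannot be told apart.

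**Figure D2:**
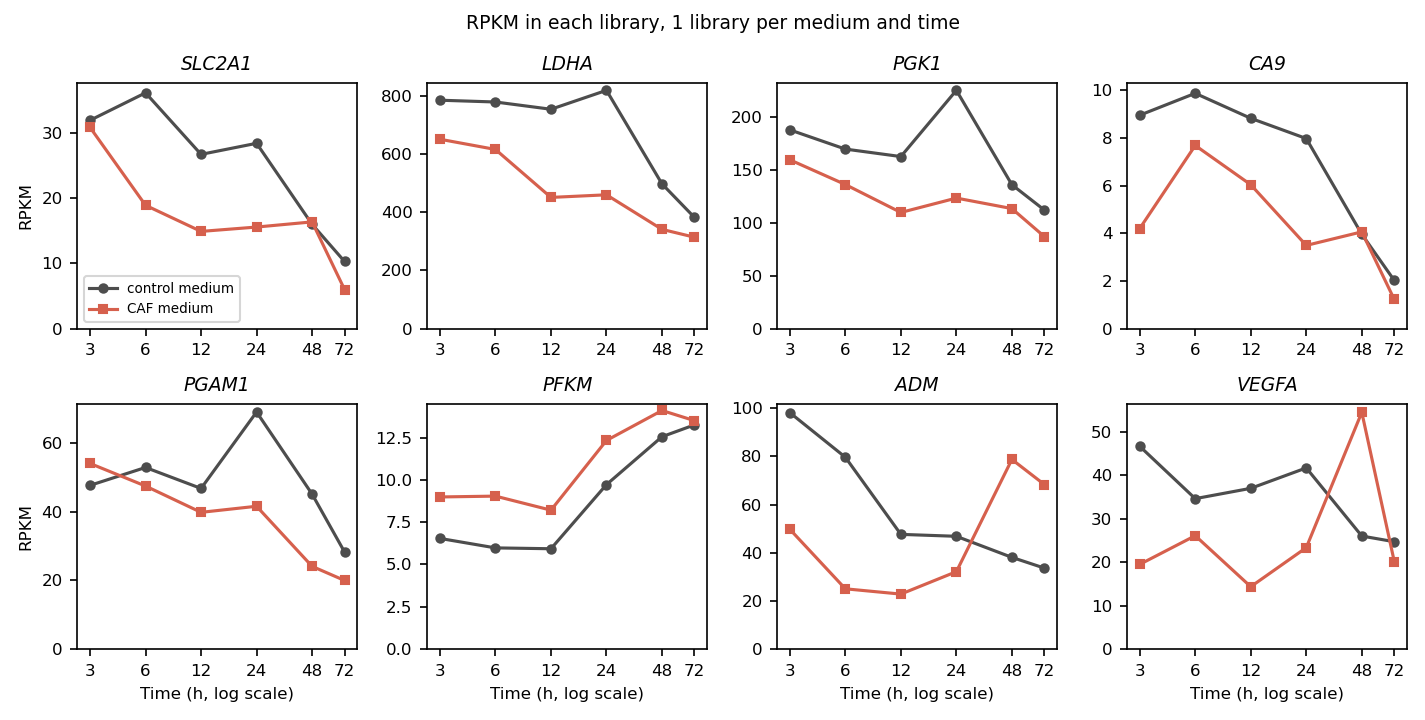
RPKM of 8 members in each library against time (log axis), circles for control medium and squares for CAF medium, 1 library per point. LDHA and PGK1 lie lower in CAF medium at all 6 times, while ADM is higher in CAF medium at 48 and 72 h and VEGFA at 48 h alone.

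Of the flux regulators, 3 of 4 had a negative change and none passed. PFKFB3, which makes the activator of phosphofructokinase fructose 2,6-bisphosphate, measured 64.2, 68.3, 74.7, 83.4, 79.6 and 71.1 RPKM in control medium and 83.9, 40.1, 34.7, 65.7, 59.3 and 45.3 RPKM in CAF medium. It was higher in CAF medium at 3 h and lower at the next 5 times (log2 -0.48 ± 0.16 SE, adjusted p = 0.0749), and without the 3 h pair the change was -0.65 (adjusted p = 0.0172). Leaving out any other pair gave adjusted p from 0.109 to 0.196. PFKFB4, a related bifunctional enzyme, had 2.99, 3.54, 3.64, 3.03, 1.75 and 2.16 RPKM in control medium and 3.13, 1.47, 1.71, 2.4, 2.27 and 1.68 RPKM in CAF medium. PDK1, which switches off pyruvate dehydrogenase, had 4.48, 5.43, 4.77, 4.27, 2.6 and 2.51 RPKM in control medium and 4.5, 2.37, 1.48, 2.81, 3.61 and 2.18 RPKM in CAF medium. Both had their widest gap to control at 6 and 12 h and lay closer to it from 24 h on; their changes at 3 to 12 h were -0.63 (adjusted p = 0.103) and -0.82 (adjusted p = 0.0775). PDK3 ranged over 2.02 to 2.98 RPKM (0.04, adjusted p = 0.834).

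CA9 was the one member of the 12 HIF targets outside glycolysis to pass over the 6 times (log2 -0.58 ± 0.14 SE, adjusted p = 0.0325). This carbonic anhydrase had 8.96, 9.88, 8.83, 7.98, 3.96 and 2.02 RPKM in control medium and 4.2, 7.69, 6.04, 3.49, 4.06 and 1.22 RPKM in CAF medium. It was lower at every time but 48 h, and both media had their lowest value at 72 h. It averaged 6.94 ± 3.18 RPKM in control medium and 4.45 ± 2.22 RPKM in CAF medium (SD, n = 6 times). Without the 3, 6, 12 or 24 h pair the change was -0.49 (adjusted p = 0.0592), -0.63 (adjusted p = 0.0761), -0.59 (adjusted p = 0.0854) and -0.48 (adjusted p = 0.107). CA12, its more abundant relative, had 74.5, 66.1, 81.9, 84.05, 81.1 and 134 RPKM in control medium and 75.6, 62.03, 40.3, 64.1, 117 and 165 RPKM in CAF medium. CA12 was lowest in the CAF medium library of 12 h and highest at 72 h in both media (log2 -0.11, adjusted p = 0.707 over the 6 times).

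ADM, the vasodilator peptide adrenomedullin, showed the largest early change of any member (log2 -1.22 ± 0.26 SE, adjusted p = 0.0286). Its levels were 98.2, 79.7, 47.6, 46.9, 38.1 and 33.6 RPKM in control medium and 49.8, 25.04, 22.8, 32.2, 78.8 and 68.3 RPKM in CAF medium. CAF medium was lower at 3, 6, 12 and 24 h and higher at 48 and 72 h; control values were lower at each later time, while CAF medium values were lowest at 12 h and highest at 48 h. Leaving out the 3, 6 or 12 h pair gave early changes of -1.35 (adjusted p = 0.0503), -1.01 (adjusted p = 0.198) and -1.31 (adjusted p = 0.135). VEGFA, the main growth factor for vessels, was also lower early without passing (log2 -0.99 ± 0.29 SE, adjusted p = 0.0674 at 3 to 12 h). It had 46.7, 34.6, 37.03, 41.7, 26.04 and 24.7 RPKM in control medium and 19.5, 26.1, 14.4, 23.4, 54.5 and 20.2 RPKM in CAF medium. VEGFA was higher in CAF medium at 48 h alone and lower again at 72 h (log2 -0.29, against 1.01 for ADM). The 48 h library in CAF medium was the highest of all 12, and without that pair the change over the other 5 times was -0.82 (adjusted p = 0.0273). Leaving out any other pair gave adjusted p from 0.231 to 0.458.

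The 48 h CAF medium library also stood out for NDRG1, a stress-response gene, and for the collagen hydroxylase subunit P4HA1. NDRG1 had 18.4, 16.5, 20.1, 16.2, 22.2 and 20.6 RPKM in control medium and 21.8, 21.4, 13.8, 16.3, 56.3 and 16.3 RPKM in CAF medium. P4HA1 had 28.4, 34.3, 32.9, 36.2, 27.3 and 27.7 RPKM in control medium and 31.5, 26.7, 17.01, 25.4, 57.3 and 31.4 RPKM in CAF medium. In both, the 48 h CAF medium value was the highest of the 12 libraries, and for P4HA1 the 12 h CAF medium value was the lowest. KDM3A, a histone H3 lysine 9 demethylase, measured 15.7, 17.6, 16.9, 18.9, 13.7 and 15.4 RPKM in control medium and 20.6, 11.7, 8.04, 13.4, 17.2 and 12.8 RPKM in CAF medium, with the lowest level again at 12 h in CAF medium. ANKRD37, an ankyrin repeat protein, was near the filter at 1.73, 2.37, 0.9, 1.12, 1.4 and 0.75 RPKM in control medium and 1.5, 0.41, 1.15, 1.03, 1.13 and 0.72 RPKM in CAF medium, and its CAF medium value of 6 h was the lowest. None of these 4 passed over the 6 times, with log2 changes of 0.18 (adjusted p = 0.57) for NDRG1, -0.07 (adjusted p = 0.851) for P4HA1, -0.27 (adjusted p = 0.307) for KDM3A and -0.32 (adjusted p = 0.341) for ANKRD37. The mitophagy receptors BNIP3 (35.3 to 72.8 RPKM) and BNIP3L (24.7 to 38.4 RPKM) had changes of -0.40 (adjusted p = 0.135) and -0.03 (adjusted p = 0.858); BNIP3 lay between -0.88 and -0.87 at 6, 12 and 24 h. P4HA2 (40.4 to 83.1 RPKM) and DDIT4, an inhibitor of mTORC1 (139.97 to 321 RPKM), were at 0.16 (adjusted p = 0.383) and 0.14 (adjusted p = 0.456).

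No gene of oxygen sensing passed over the 6 times, and all 4 were lower in CAF medium at 12 h. EPAS1, which encodes HIF-2 alpha, had 38.1, 40.4, 35.2, 56.1, 35.2 and 33.7 RPKM in control medium and 35.4, 40.5, 17.2, 33.5, 49.9 and 28.3 RPKM in CAF medium. The 12 h value in CAF medium was the lowest of the 12 libraries (log2 -0.27, adjusted p = 0.313 over the 6 times). HIF1A, which encodes HIF-1 alpha, ranged over 119 to 392 RPKM and was lower at 3 and 12 h but higher at 6, 24, 48 and 72 h (log2 0.16, adjusted p = 0.497). The prolyl hydroxylases that mark HIF for destruction, EGLN1 (11.6 to 27.6 RPKM) and EGLN3 (2.97 to 6.4 RPKM), had changes of -0.29 (adjusted p = 0.147) and -0.05 (adjusted p = 0.816).

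At single times, a difference of 2-fold or more was described without a test. At 3 h, 2 of 40 members were lower (CA9 and VEGFA) and 0 higher, beside 0.981% and 1.2% of all tested genes. At 6 h, 4 were lower (PFKFB4, PDK1, ADM and ANKRD37) and 0 higher, beside 0.973% and 2.32%. The 12 h pair had the most, 7 lower (PFKFB3, PDK1, CA12, ADM, VEGFA, KDM3A and EPAS1) and 0 higher, beside 1.33% and 2.96%. At 24 h CA9 alone was lower and none higher, beside 0.707% and 3.38%. At 48 h, 0 were lower and 6 higher (SLC2A3, ALDOC, ADM, VEGFA, NDRG1 and P4HA1), beside 3.17% and 2.24%, and at 72 h ADM was higher and none lower, beside 0.15% and 0.757%. Of the 40 members, 18, 26, 30, 29, 19 and 28 were lower by any amount at the 6 times, beside 40.2, 45.7, 49.1, 44.95, 56.05 and 59.9% of all tested genes. The median member differed by 0.04, -0.19, -0.35, -0.37, 0.02 and -0.16 on the log2 scale, against 0.08, 0.04, 0.00904, 0.04, -0.06 and -0.05 over all genes. Of the 12 HIF targets outside glycolysis, 5, 8, 11, 10, 2 and 7 were lower at the 6 times, with medians of 0.06, -0.35, -0.70, -0.43, 0.43 and -0.08. Of the 8 tested members of lower glycolysis, 5, 6, 6, 6, 7 and 7 were lower, with medians of -0.09, -0.16, -0.17, -0.47, -0.31 and -0.21. Each of these times is 1 library per medium.

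The early and late periods were compared in 1 fit. At 3 to 12 h, 1 of 40 members was lower (ADM) and 1 higher (PFKM), beside 1.86% and 3.77% of all genes, with a member median of -0.17 against 0.03 over all genes. At 24 to 72 h, 1 of 40 was lower (PGAM1) and 0 higher, beside 2.74% and 1.36%, with a member median of -0.10 against -0.02. The members' shares thus lay near the background in both periods. The difference late minus early was called for 0 members (limma), beside 0.357% of all genes lower and 0.0582% higher; at an unadjusted p under 0.05 it was negative in 2 members and positive in 4. ADM had the largest difference, 1.73 ± 0.37 SE (adjusted p = 0.0787). The late effect lay above the early one in 10 of 12 HIF targets outside glycolysis (median difference 0.34) and in 1 of 8 members of lower glycolysis (median difference -0.17). Within the late period, the median HIF target outside glycolysis was above 0 at 48 h alone (0.43, with 1 library per medium). It was -0.43 at 24 h and -0.08 at 72 h. Over all genes 40.9% had a late effect above the early one and 59.1% below it, with a median difference of -0.06. These counts were not tested.

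**Figure D3:**
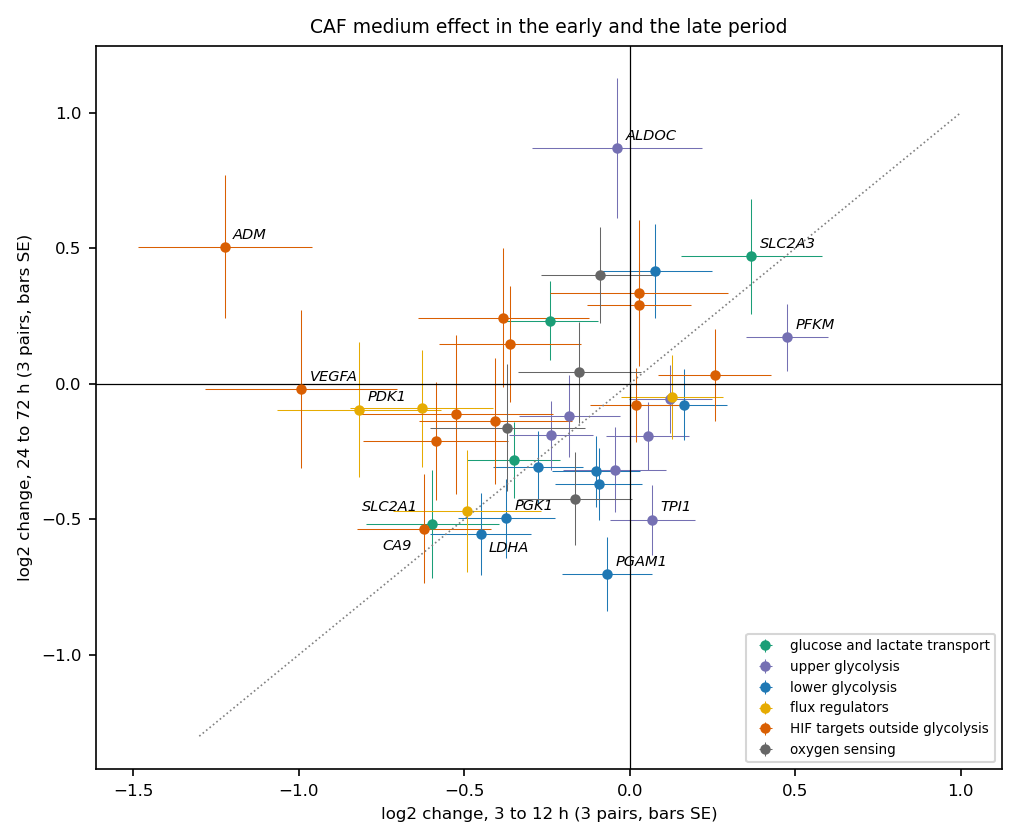
Change with CAF medium at 24 to 72 h against that at 3 to 12 h for the 40 tested members, with SE bars from the limma fit, coloured by role; the dotted line marks equal changes. SLC2A1, LDHA, PGK1 and CA9 lie near the line below 0 on both axes, PGAM1 and TPI1 are low only on the late axis, and ADM lies far to the left with a late change above 0.

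The ratio of RPKM within 6 pairs of related genes is given as a description. The test run on it is not used, since the pairs were chosen after their values had been seen to differ. LDHA made up 54.3, 53.7, 55.6, 51.7, 38.1 and 36.1% of LDHA plus LDHB in control medium and 48.8, 45.3, 37.9, 36.4, 32.7 and 33.2% in CAF medium. It was the smaller share in CAF medium at 6 of 6 times (log2 -0.55 ± 0.14 SE, over 6 times). SLC2A1 made up 77.4, 81.5, 77.8, 79.4, 49.9 and 38.3% of SLC2A1 plus SLC2A3 in control medium and 69.1, 63.4, 63.2, 57.8, 31.8 and 30.7% in CAF medium, again lower at 6 of 6 times (log2 -1.01 ± 0.16 SE). ENO2 went from 1.64 to 5.88% of both enolases between 3 and 72 h in control medium and was higher in CAF medium at 6 of 6 times (log2 0.55 ± 0.20 SE). For PFKM to PFKP the ratio was higher at 5 of 6 times (log2 0.50 ± 0.16 SE). ALDOC to ALDOA was also higher at 5 of 6 times (log2 0.64 ± 0.37 SE), and SLC16A1 to SLC16A3 was lower at 5 of 6 (log2 -0.32 ± 0.19 SE).

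**Figure D4:**
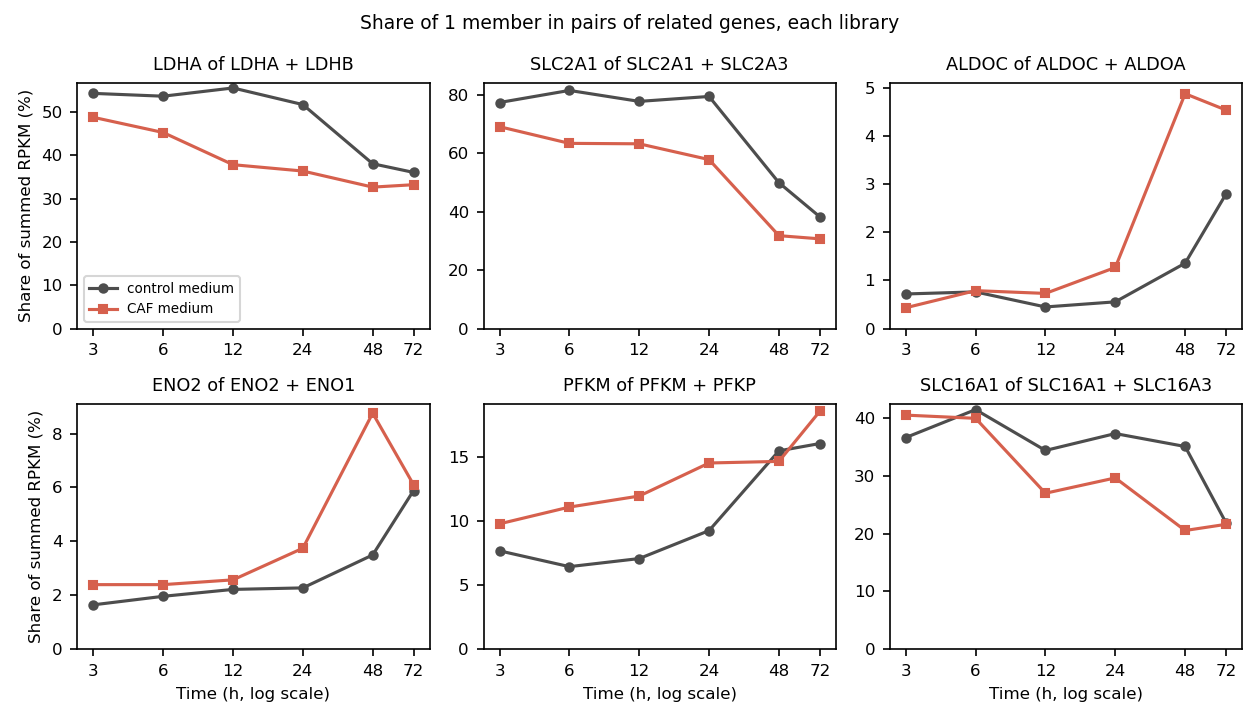
Share of the first gene in the summed RPKM of 6 pairs of related members (percent) in each library against time (log axis), circles for control and squares for CAF medium. The LDHA and SLC2A1 shares lie lower in CAF medium at each of the 6 times, and the ENO2 share lies higher.

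The members' levels also changed with time. With both media averaged at each time, 12 of 40 members fell and 4 rose with the logarithm of time, beside 9.62% and 15.1% of all genes. Those that fell were SLC2A1, SLC16A1, GPI, ALDOA, TPI1, GAPDH, PGAM1, ENO1, PKM, LDHA, CA9 and BNIP3, that is 8 of 16 tested enzymes of glycolysis and 4 others. Per doubling of time, the slope on the log2 scale was -0.34 ± 0.06 for SLC2A1 (SE, limma adjusted p = 0.0058), -0.24 ± 0.04 for ENO1 (adjusted p = 0.0037), -0.22 ± 0.05 for LDHA (adjusted p = 0.00886) and -0.35 ± 0.09 for CA9 (adjusted p = 0.0197). GAPDH fell with a slope of -0.21 (adjusted p = 0.0232), and its level at 72 h was 873 RPKM in control medium and 639 RPKM in CAF medium, the lowest of each. The members that rose were ALDOC (0.37 ± 0.08), PFKM (0.21 ± 0.05), HIF1A (0.21 ± 0.06) and ENO2 (0.14 ± 0.04), with adjusted p between 0.0118 and 0.036. Without the 72 h libraries 2 members fell and none rose, without those of 6 h 6 fell and 2 rose, and without those of 48 h 8 fell and none rose. Leaving out 3 h gave 8 and 7. Of all 12029 tested genes, 1157 fell and 1811 rose with every time kept. Those counts became 253 and 563 without 72 h and 533 and 869 without 6 h. They became 433 and 790 without 48 h, and 938 and 1677 without 3 h. ENO1 and SLC2A1 kept their calls under all 14 alternatives, and LDHA was lost without 72 h alone. PKM and ENO2 were lost under 7 each, HIF1A under 6, ALDOA and SLC16A1 under 5 each, and GPI and PFKM under 3 each. Over the same alternatives the slope ran from -0.28 to -0.11 for GAPDH (adjusted p up to 0.206, lost under 4), from -0.53 to -0.18 for CA9 (adjusted p up to 0.139, lost under 4) and from 0.20 to 0.54 for ALDOC (adjusted p up to 0.17, lost under 4). It ran from -0.30 to -0.10 for PGAM1 (adjusted p up to 0.337, lost under 5), from -0.28 to -0.13 for TPI1 (adjusted p up to 0.0965, lost under 2) and from -0.17 to -0.07 for BNIP3 (adjusted p up to 0.498, lost under 7). The GAPDH and CA9 calls were both lost with no filter and without the 6 or 72 h libraries, GAPDH also in control medium alone and CA9 in CAF medium alone. Depth also rose with time, and its part in these slopes was not tested.

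**Figure D5:**
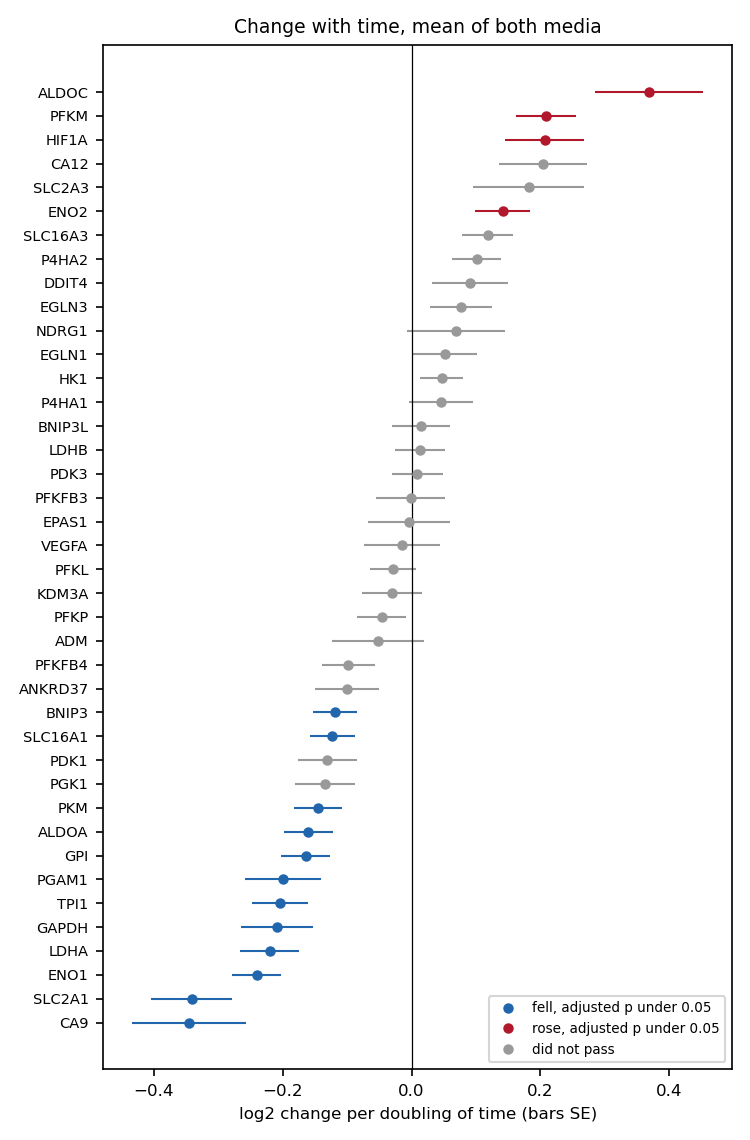
Slope of log2(RPKM + 0.5) per doubling of time for the 40 tested members, from the mean of both media at each of 6 times, with SE bars; blue fell, red rose and grey did not pass at an adjusted p of 0.05. SLC2A1 and CA9 have the steepest decline and ALDOC the steepest rise.

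Other genes of the same pathways were read from 4 lists. Of 27 tested further genes of glycolysis and pyruvate use, 0 were lower and 1 higher over the 6 times, beside 4.13% and 6.06% of all genes. That gene was PDK4, a kinase that blocks pyruvate dehydrogenase as PDK1 does, at 116 ± 84.0 RPKM in control medium and 205 ± 90.0 RPKM in CAF medium (log2 1.01 ± 0.17 SE, adjusted p = 0.0133). In the early period PDK4 (log2 1.26 ± 0.21 SE, adjusted p = 0.0131) and the glucose transporter gene SLC2A12 (log2 1.08 ± 0.23 SE, adjusted p = 0.0273) were higher, 2 of 27 beside 3.77% of all genes. Of 36 tested further HIF targets, 5 were lower and 3 higher over the 6 times, beside the same 4.13% and 6.06%. AK4, an adenylate kinase of mitochondria (log2 -0.77 ± 0.17 SE, adjusted p = 0.0223), PPP1R3C, which directs a phosphatase to glycogen (log2 -0.53 ± 0.13 SE, adjusted p = 0.0334), and CAV1, the caveolin gene (log2 -0.52 ± 0.11 SE, adjusted p = 0.021), were among the lower ones, with GYS1 and C4orf3 (log2 -0.32 ± 0.09 SE, adjusted p = 0.0494). ANKZF1 (log2 0.66 ± 0.15 SE, adjusted p = 0.0271) and KDELR3 (log2 0.62 ± 0.14 SE, adjusted p = 0.0285) were among the higher ones, with CITED2. At 3 to 12 h 3 of these targets were lower and 3 higher, beside 1.86% and 3.77% of all genes: STC2, a secreted glycoprotein (log2 -0.82 ± 0.17 SE, adjusted p = 0.0273), AK4 and GBE1, the glycogen branching enzyme (log2 -0.66 ± 0.16 SE, adjusted p = 0.0399), against RORA (log2 0.74 ± 0.17 SE, adjusted p = 0.0323), ZNF395 (log2 0.55 ± 0.13 SE, adjusted p = 0.0376) and MXI1 (log2 0.85 ± 0.19 SE, adjusted p = 0.0294). At 24 to 72 h CAV1 was lower (log2 -0.66 ± 0.15 SE, adjusted p = 0.0349) and KDELR3 higher (log2 0.83 ± 0.19 SE, adjusted p = 0.0337), 1 of 36 each beside 2.74% and 1.36%. STC2 was the 1 target whose late and early effects differed past the threshold, by 1.50 ± 0.25 SE (adjusted p = 0.0385). Its differences ran from -1.09 at 3 h to 0.78 at 72 h, below 0 at 3 to 12 h and above 0 later. In the HIF machinery 1 of 13 tested genes was lower, the coactivator CREBBP (log2 -0.49 ± 0.11 SE, adjusted p = 0.0285), and none was higher, beside 4.13% and 6.06%. Left-out times bore on these calls too. PDK4 over the 6 times stood at 0.88 (adjusted p = 0.0508) and 1.08 (adjusted p = 0.0538) without the 6 or 12 h pair. The other calls over the 6 times named in this paragraph were lost without the 6, 12 or 24 h pair. Those of ANKZF1, KDELR3, GYS1, CREBBP and PPP1R3C were also lost without the 48 h pair, and that of PPP1R3C without the 72 h pair. The C4orf3 call was lost without any 1 pair, with a pseudocount of 0.1 and under 11 of 14 alternatives in all. Where a pair left out ended one of these calls, PDK4 aside, the adjusted p lay between 0.0571 and 0.12. Every early call was lost without the 6 or 12 h pair, those of SLC2A12, STC2, ZNF395 and MXI1 also without the 3 h pair, and that of GBE1 without the 72 h pair, with adjusted p between 0.0512 and 0.223. The late CAV1 change was -0.66 (adjusted p = 0.0546), -0.61 (adjusted p = 0.14), -0.66 (adjusted p = 0.216) and -0.71 (adjusted p = 0.0733) without the 6, 24, 48 or 72 h pair. For KDELR3 it was 0.83 (adjusted p = 0.0612), 0.72 (adjusted p = 0.136) and 0.64 (adjusted p = 0.323) without the 12, 24 or 48 h pair. All calls over the 6 times in these lists, PDK4 included, were also lost with no filter or with no time term. The STC2 difference held without the 24 h pair only.

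TXNIP and ARRDC4, arrestin-fold genes that the glucose sensor MondoA activates and whose products restrain glucose uptake, were both higher in CAF medium. TXNIP measured 4.94 ± 8.60 RPKM in control medium and 19.8 ± 23.4 RPKM in CAF medium (log2 2.39 ± 0.25 SE, adjusted p = 0.00548) and was higher at 6 of 6 times. It kept its call with any 1 pair left out, though not with no filter or no time term, at 2.18 (adjusted p = 0.014) without the 24 h pair and 2.68 (adjusted p = 0.000179) without the 72 h pair. ARRDC4 measured 3.34 ± 3.05 RPKM in control medium and 6.11 ± 5.03 RPKM in CAF medium (log2 0.73 ± 0.17 SE, adjusted p = 0.0296), and 0.71 (adjusted p = 0.0874), 0.88 (adjusted p = 0.0538), 0.62 (adjusted p = 0.0955) and 0.61 (adjusted p = 0.0619) without the 6, 12, 24 or 48 h pair. They were 2 of 4 tested genes in their list, beside 6.06% of all genes, and the other two, MLX and MLXIP, had changes of 0.17 and -0.03 (adjusted p = 0.383 and 0.903).

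The small RNA libraries gave a separate readout of the hypoxia response, since HIF raises miR-210. Its 3p arm lies at chr11:568112-568133 (GRCh38.p14, minus strand, RefSeq), and the mature sequence is shown with the seed, bases 2 to 8, in capitals.
miR-210-3p: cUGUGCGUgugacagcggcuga
It measured 499, 856, 905, 1188, 441 and 651 RPM (miRNA reads scaled to a common library total) in control medium and 753, 342, 751, 957, 778 and 524 RPM in CAF medium. CAF medium was lower at 4 times, most at 6 h, and higher at 3 and 48 h, and the ranges of the media overlapped. The mean was 757 ± 281 RPM in control and 684 ± 217 RPM in CAF medium (SD, n = 6 times), a change of log2 -0.13 ± 0.26 SE (limma adjusted p = 0.898). Over 470 tested miRNAs 0 were called in either direction, 0% of them; limma gave 49 at an unadjusted p under 0.05 and edgeR on the recovered reads called 0 with 51. Without the 6 h pair the change of miR-210-3p was 0.10. Each value rests on 675 to 4937 reads.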

How the data were processed

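The mRNA values are RPKM deposited by the authors with gene model lengths in bases. Small RNA values are RPM as deposited by the authors; the labels call them TPM, but they carry no length correction. Per the submitters' processing notes, TopHat2, edgeR, Bowtie and hg19 were used, with no versions; counting, strand use and the joining of replicates were not given in the sources used here. Depth was recovered from the smallest steps of gene models under 400 bases and of low miRNAs: 100% of 59 to 107 mRNA and 758 to 1052 miRNA values per library came out whole within 0.1 read, giving 0.868 to 5.77 M assigned reads for small RNA. Depth bears on counting error only, while SE and p-values come from the scatter of the libraries over the times.

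Here log2(RPKM + 0.5) of the 12029 genes averaging 1 RPKM or more, and log2(RPM + 1) of the 470 of 2582 miRNAs averaging 10 or more, were tested in R 4.3.3 with limma 3.58.1 (lmFit, eBayes with trend), two-sided, with Benjamini-Hochberg adjustment at 0.05. This scale understates changes of low genes. Time was a factor (5 residual degrees of freedom; 4 with early and late effects), and slopes used log2 hours and the mean of both media (4). edgeR 4.0.16 (quasi-likelihood) was an added alternative for miRNAs. An exact sign-flip test over the 6 times was run on the ratios, and no ratio passed it at an adjusted p under 0.05. It is not used, since the pairs were chosen after their values had been seen. Alternatives were the pseudocount, the filter, centring, quantile normalization, the time term, the trend and leaving out each time. Every member is named, and values in every library are given for members past the threshold in a medium fit or 2-fold apart at any time. From other lists the 12 called genes with the largest change, TXNIP and ARRDC4 are named. GYS1, C4orf3, CITED2, CREBBP and HKDC1, which was not called over the 6 times, were added after their values were seen. Members and lists were chosen with earlier results of these data known. Labels pair libraries by time, not by a replicate number.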

Additional observations from a re-analysis of the deposited data

Results flagged for a closer look

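A library was listed where its gap to the nearest other value, as a share of the range of the 6, exceeded Dixon's critical value. Of 122 sets of 6 checked, 14 met this. The critical value is meant for about 1 in 20 among independent values without a trend. These sets share libraries and follow a time course, so that rate does not apply to them. The CAF medium library of 48 h was the highest for SLC2A3 (35.1 RPKM, next 13.8), VEGFA (54.5, next 26.1), NDRG1 (56.3, next 21.8), P4HA1 (57.3, next 31.5) and P4HA2 (83.1, next 54.7). The difference between media at 48 h was likewise apart for ENO2 (log2 0.97, next 0.28) and P4HA2 (log2 0.76, next 0.14). In control medium, the 72 h library was the highest for SLC16A3 (38.7 RPKM, next 30.3), ENO2 (21.8, next 16.6) and CA12 (134 RPKM, next 84.1), the 48 h library for DDIT4 (321 RPKM, next 198), and the 24 h library for EPAS1 (56.1 RPKM, next 40.4). EGLN1 was lowest in the CAF medium library of 12 h (11.6 RPKM, next 19.1). ANKRD37 had its lowest difference at 6 h (log2 -1.66, next -0.22).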

How the results depend on the processing

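Counts of called members moved as follows, each range being that with 1 time left out. Over the 6 times, the 4 lower members became 0 with no filter and 0 with no time term, and 0 to 5 (0 without 6, 12 or 24 h). The 0 higher became 1 with median centring and 0 to 2. Over all genes, 497 lower and 729 higher became 0 and 0 with no filter and with no time term. They became 643 and 794 with median centring, and 10 to 650 and 21 to 901 with 1 time left out. At 3 to 12 h, the 1 lower became 0 with no filter and 0 to 4, and the 1 higher became 0 with a pseudocount of 1, no filter, a mean of at least 5 RPKM, median centring or quantile normalization, and 0 to 1. Over all genes, 224 lower and 453 higher became 0 and 0 with no filter, and 0 to 312 and 0 to 772. The 453 higher became 412 with a pseudocount of 1, 230 of 7519 tested at 5 RPKM, 418 with median centring and 299 with quantile normalization. At 24 to 72 h, the 1 lower became 0 with no filter, 2 at 5 RPKM, 2 with quantile normalization and 0 to 2, and the 0 higher 0 to 1. Over all genes, the 329 lower became 18 with no filter, 285 at 5 RPKM, 329 with quantile normalization and 28 to 343. The 163 higher became 3 to 204. The difference of the periods went from 0 to 1 at 5 RPKM and 0 to 1. With time, the 12 that fell became 8 with no filter and 15 with median centring. They became 9 in control and 6 in CAF medium libraries alone, and 2 to 14. Over all genes, the 1157 that fell became 801 with no filter and 1624 with median centring. They became 716 in control and 623 in CAF medium libraries alone, and 253 to 1335. The 4 members that rose became 1 with no filter, 3 with median centring and 5 with quantile normalization. They became 2 in control and 2 in CAF medium libraries alone, 7 with all 12 libraries, and 0 to 7. Over all genes, the 1811 that rose became 1806 with no filter, 1499 with median centring and 1440 with quantile normalization. They became 1727 in control and 771 in CAF medium libraries alone, 2532 with all 12 libraries, and 563 to 2126. With no filter 22026 genes were fitted and adjusted over. The cause of the moves, those with no filter included, was not tested. No called change turned direction. Uncalled changes that did, by 1 time left out, were SLC16A3 (-0.125 to 0.0772; 0.0186 with quantile normalization), LDHB (-0.00722 to 0.0927), PDK3 (-0.0241 to 0.0914; -0.00216 with quantile normalization), CA12 (-0.234 to 0.0745), BNIP3L (-0.0804 to 0.029), NDRG1 (-0.0475 to 0.323), P4HA1 (-0.293 to 0.104), EGLN3 (-0.159 to 0.0403) and miR-210-3p (-0.325 to 0.102). The ratios of related genes kept their direction without any 1 time. No paired analysis by replicate number was possible because the labels carry none. Depth limits HK2 and ANKRD37 most.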
